A study of Homo sapiens with 6 samples.

Results

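The MYC and PVT1 locus lies on the long arm of human chromosome 8 (band 8q24). In the hg19 build, MYC spans chromosome 8 from 128747680 to 128755197 on the plus strand and PVT1 spans 128806772 to 129199347 on the same strand. Members were all END-seq peaks whose summit fell in either gene body or within 20 kb of it, and all paired sites, defined as a reverse-strand peak followed by its closest forward-strand peak overlapping it or starting less than 150 bp downstream. The MYC window thus covered 47518 bp and the PVT1 window 432576 bp. They held 167 and 1089 peaks, that is 1256 of the 4267178 peaks in all 8 deposited lists. The same windows held 27 and 95 of the 262171 paired sites summed over the libraries.

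END-seq ligates an adapter to free DNA ends and reads away from the break, so reads from the left end of a double-strand break pile up as a reverse-strand peak and those from the right end as a forward-strand peak. Strand here is the side of the break that was read, not the strand of a transcript. All samples were HCT116, a human colorectal carcinoma cell line, and mouse pre-B cells were mixed in as a spike-in. Cells were left untreated or exposed to 10 µM camptothecin (CPT) for 10 min (CPT10) or 20 min (CPT20), with 2 biological replicates each. The sample names give the times as µM, and the treatment protocol was followed instead. The deposited lists came from the 4 treated libraries, 1 list per strand, so untreated cells enter only as the input that the authors used for peak calling and give no value of their own here.

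MYC encodes a transcription factor that drives growth and proliferation genes and is a target of Wnt signalling in colorectal cells. PVT1, its downstream neighbour, is a long noncoding RNA gene that hosts several microRNAs, and its promoter is known to compete with that of MYC for shared enhancers. CPT traps DNA topoisomerase I in its cleavage complex on DNA, where collisions with transcription or replication can turn single-strand cuts into double-strand breaks. Topoisomerase I relieves the supercoils that moving RNA polymerases leave, and highly transcribed genes are known places of its action. CASC11, a noncoding gene on the minus strand from 128698588 to 128751233, overlaps the first 2 exons of MYC, so break ends there belong to both genes.

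The lists of the 4 libraries differed in length, and this touches every count below. Over both strands, the 10 min lists held 1418625 (replicate 1) and 1051610 (replicate 2) peaks and the 20 min lists 1221845 and 575098. Peaks had called summits of at least 4 to 6 reads, depending on the list, against expected heights of 0.727 to 1.44 reads recovered from the fold values. Counts were therefore divided by the peak density of the same library over chromosomes 1 to 22 and X (relative to the genome) or over the 1 Mb on either side of the locus (relative to the flanks). Peaks of chromosome 8 were denser beyond position 65000000, on its long arm. In 5 Mb bins the density relative to the genome lay between 0.662 and 1.12 up to position 65000000 and between 1.25 and 2.38 beyond it, and in the bin that holds the locus it was 1.63 to 2.07 over the 4 libraries. How far this enters the values relative to the genome was not tested, and the flanks, which lie in the same block, were taken as the nearer reference.

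On the mean of the 4 libraries the body of MYC was the densest stretch of the locus, but CPT20 replicate 2 carried much of that mean, and in CPT20 replicate 1 the first 5 kb of PVT1 were denser (3.72) than either part of MYC. Per library, 8, 7, 6 and 9 peaks had their summit in the first 5 kb of MYC (CPT10 replicates 1 and 2, then CPT20 replicates 1 and 2), which was 3.21, 3.78, 2.79 and 8.90 times the genome density. The remaining 2.5 kb of the gene held 5, 3, 4 and 6 peaks, at 3.98, 3.22, 3.70 and 11.8 times the genome density. All 4 libraries were thus above 2.7 in both parts of the gene, with CPT20 replicate 2, the shortest list, standing far above the other 3. The 20 kb upstream of MYC reached 1.80 ± 0.24 (SD, n = 4 libraries) and the 20 kb past its 3′ end 2.04 ± 0.76, both close to the 1.56 to 2.02 of the flanks.

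**Figure D1:**
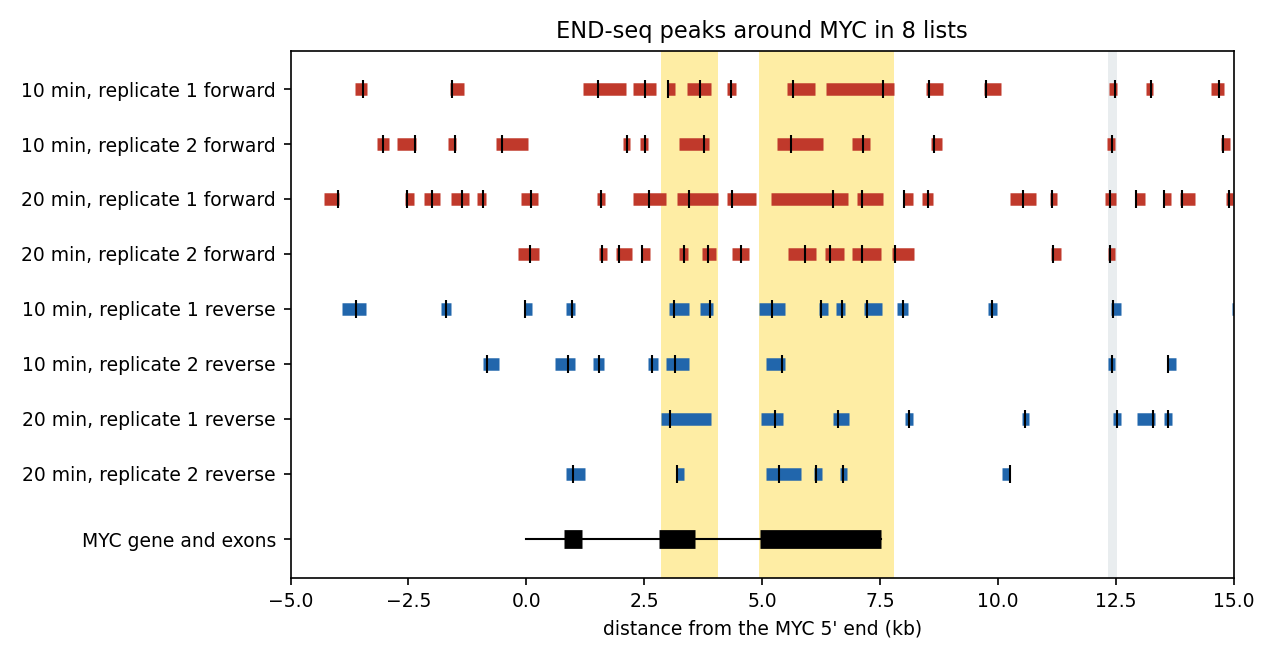
Peaks from 5 kb upstream to 15 kb downstream of the MYC 5′ end, on a linear axis in kb, as red (forward) and blue (reverse) bars with the summit as a black tick, 1 row per list, above the exons of the canonical MYC transcript (black boxes). Yellow bands are the 2 sites found in both replicates at both times and the grey band is the site replicated at 10 min only. Every list has peaks over exons 2 and 3, whereas over exon 1 there are reverse peaks in 3 libraries and no forward peak.

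Peaks in MYC were also broad. Between 49.7% and 71.0% of the MYC body lay under a peak of either strand in each library, against 7.71% to 22.6% of the PVT1 body. The median width of peaks in the MYC body was 375, 399, 596 and 336 bp, whereas the medians over the genome were 201, 183, 219 and 198 bp. Peak counts therefore understate how much of MYC lay under a peak. A peak also covers sequence read away from the break, so the extent of break ends cannot be taken from this coverage.

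The exons of MYC differed in the strands they showed. The canonical transcript starts at 128748477, and no forward peak of any library overlapped its first exon (128748477 to 128748869). A reverse peak lay there in 3 of 4 libraries, with −log10 q of 31.2 and 2.21 at 10 min and of 10.9 in the second 20 min library, and CPT20 replicate 1 had none. The second exon (128750494 to 128751265) carried both forward and reverse peaks in all 4 libraries. The same held for the third exon (128752642 to 128755197), which encodes the DNA-binding and dimerization end of the protein. Of the peaks with a summit in the MYC body, 86.7% to 100% fell in an exon of an annotated transcript, but 81.3% of the body is exonic in this annotation.

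Both persistent sites of MYC lay on these later exons. A persistent site is a paired site found in both replicates at 10 min and in both at 20 min. The first spanned 128750532 to 128751737, from 2852 to 4057 bp past the MYC 5′ end, over the second exon and the start of the following intron. The lower −log10 q of its paired peaks was 15.1 and 7.44 at 10 min and 7.02 and 1.91 at 20 min, so that CPT20 replicate 2 passed only just. The second spanned 128752603 to 128755470, covering the third exon and ending just past the gene, with lower −log10 q of 16.2 and 10.7 at 10 min and 14.2 and 8.71 at 20 min. By this measure it was the better supported of the 2 in every library. Where a library had more than 1 pair in a site, the pair with the highest such value was taken. The third-exon site held 4, 1, 2 and 3 pairs per library, against 3, 1, 2 and 1 in the second-exon site.

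In both of these sites, with the same pairs taken, the reverse summit lay left of the forward summit in 3 of 4 libraries. At the second exon the position of the forward summit minus that of the reverse summit was 541 and 617 bp at 10 min and −451 and 148 bp at 20 min (replicates 1 and 2). At the third exon it was 872 and 171 bp at 10 min and 1220 and −235 bp at 20 min. The summits of the paired peaks thus did not coincide between libraries, and the sites describe regions of 1206 and 2868 bp in which ends of both orientations were found, not single break positions.

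The PVT1 window held 1 persistent site, at the gene's 5′ end. It spanned 128806578 to 128807374, from 194 bp upstream to 602 bp downstream of the annotated PVT1 start, and overlapped the first exon of the canonical transcript (128806787 to 128806980). Its GC content was 64.4%, against 45.6% for the whole PVT1 window. The lower −log10 q of its paired peaks was 10.9 and 2.19 at 10 min and 9.74 and 4.07 at 20 min. Here the forward summit lay to the right of the reverse summit in all 4 libraries, by 256, 373, 259 and 476 bp. In 3 of these libraries the paired peaks did not overlap, and there the pairing rule itself fixes this order. With peaks limited to a −log10 q of at least 3, CPT10 replicate 2 lost the site, which then counted as replicated at 20 min only.

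**Figure D2:**
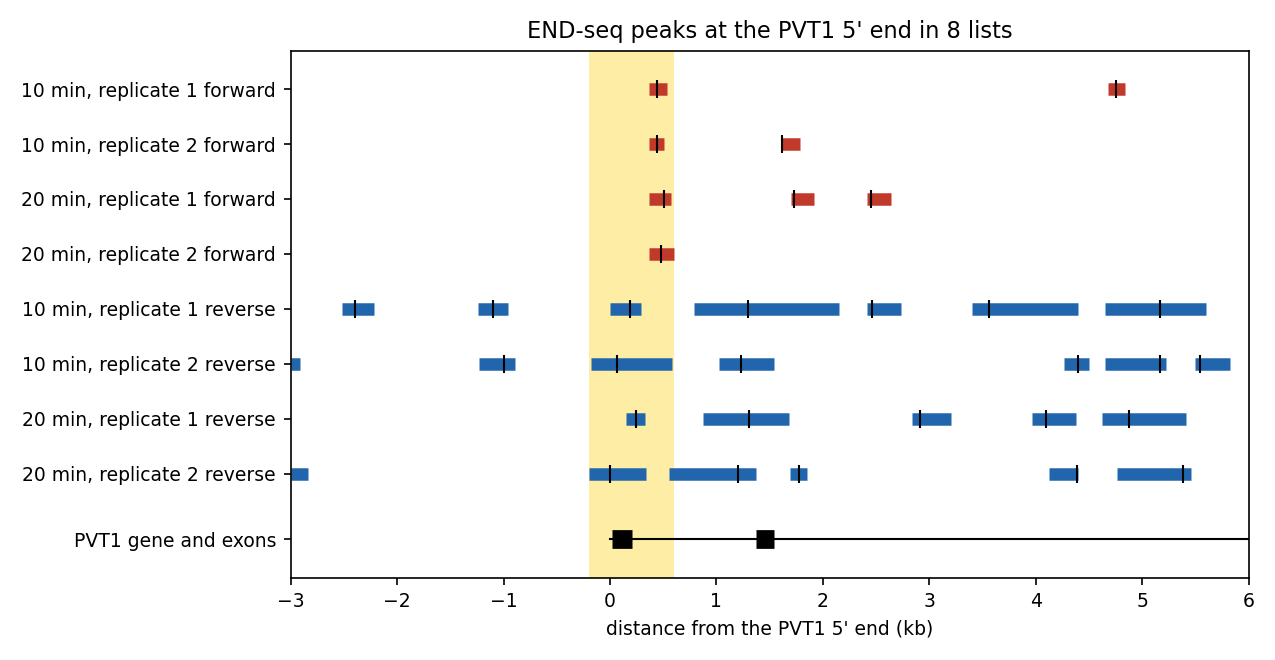
Peaks from 3 kb upstream to 6 kb downstream of the PVT1 5′ end, on a linear axis in kb, drawn as red (forward) and blue (reverse) bars with the summit as a black tick, 1 row per list, above the first 2 exons of the canonical transcript. The yellow band is the persistent site, in which the left edge of the forward peak falls at the same base in all 4 libraries, while reverse peaks outnumber forward ones over the stretch that follows.

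The forward peak of this site began at position 128807139 in all 4 libraries, 367 bp past the PVT1 5′ end. In a forward peak the left edge is the side next to the break. No other break-side edge in the locus or its flanks was shared to the base by 3 or more libraries. Over chromosomes 1 to 22 and X, 19 forward and 24 reverse break-side edges recurred in all 4 libraries, against 0 forward and 1 reverse edges on the far side of the peak. Agreement between any 2 libraries was rare in general. Of 493 overlaps of same-strand peaks between libraries in the locus, 10 shared the break-side edge (2.03%) and 5 the far edge (1.01%), and over chromosome 8 these shares were 1.37% and 0.590%. Of the 10, 6 were the library pairs of this single PVT1 edge, and without them the share in the locus was 0.821% (4 of 487). The plot of peaks at the PVT1 5′ end shows the shared edge as the aligned left ends of the 4 red bars.

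A persistent site overlapped the first 5 kb of both genes, so 2 of the 2 members had one at the deposited threshold. At −log10 q of at least 3, MYC kept 1 persistent site and PVT1 had 0. Over all annotated genes of these chromosomes it did so in 417 of 20098 protein-coding genes (2.07%) and in 157 of 18592 long noncoding RNA genes (0.844%). The locus held 3 more replicated sites, each replicated at 10 min and in at most 1 library at 20 min. One lay 12338 to 12520 bp past the MYC 5′ end (128760018 to 128760200), with ends also in CPT20 replicate 1. Another lay 17.0 to 17.4 kb upstream of PVT1 (128789399 to 128789741), and the last in a PVT1 intron 334 kb from its 5′ end (129140405 to 129140934). At these settings 0 sites of the locus were replicated at 20 min only, whereas with pairing under 300 bp PVT1 had 1. The flanks, 2.01 Mb in all, held 1 persistent site, 11 replicated at 10 min only and 2 replicated at 20 min only.

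Peak heights at the 5′ ends varied by strand and list. In the first 5 kb of MYC, the highest fold over the expected height was 9.01, 9.81, 16.6 and 8.05 among forward peaks and 14.5, 6.95, 5.91 and 8.61 among reverse peaks, in the order of libraries used above. Among the 20098 protein-coding genes these values stood between the 55.4th and 98.4th percentile, with a median of 93.5 over the 8 lists. The lowest was the reverse list of CPT20 replicate 1, in which MYC had 1 peak. Within 1 kb on either side of the 5′ end, MYC had no peak in that list nor in the forward list of CPT10 replicate 1. The median percentile there was 91.3. Genes with no peak counted as a fold of 0 in all these percentiles. Depending on the list, 47.6% to 80.7% of protein-coding genes had a peak in the first 5 kb. Within 1 kb these shares were 23.5% to 53.3%. For PVT1 the highest forward fold was 7.37, 5.19, 16.6 and 4.83 and the highest reverse fold 11.6, 11.6, 13.6 and 11.3. Among all 63827 genes its reverse values were above the 96th percentile in each library, while its forward values were near the 75th to 81st percentile in 3 of 4 libraries and at 99.2 in CPT20 replicate 1. Genes with no peak again counted as 0. A forward peak in the first 5 kb was present in 64.9%, 59.1%, 68.2% and 40.4% of all genes, in the same order of libraries.

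The summit with the highest −log10 q of a list lay in a replicated site in 3 of 8 lists for the MYC window and in 1 of 8 for the PVT1 window. In the MYC window it was at the first exon in the reverse lists of CPT10 replicate 1 and CPT20 replicate 2, 974 and 982 bp past the 5′ end, that is 8 bp apart. Both replicate 2 libraries had their best forward summit in the third exon, at 7131 bp (CPT10) and 7111 bp (CPT20). The best forward summit of CPT20 replicate 1 was 2598 bp past the 5′ end, with a −log10 q of 36.0 and a height of 36 reads, and it stood just before the second exon. The best reverse summit of CPT10 replicate 2 was in the third exon at 5431 bp, and those of the remaining 2 lists lay at −18187 and −15050 bp from the MYC 5′ end, each tied with another peak of its list. In the PVT1 window the best summits were scattered from 3 to 405440 bp past the 5′ end, and 5 of the 8 lay within its first 12 kb. Of these 5, the reverse summit of CPT10 replicate 2 at 1229 bp tied with another peak of its list. The peak at the lower coordinate was taken. The highest of all was a reverse summit of CPT20 replicate 1 in an intron, 11.4 kb from the 5′ end, at −log10 q 51.7 and 46 reads, followed by a forward summit of CPT10 replicate 2 at 82.1 kb (−log10 q 49.0, 39 reads). Only the reverse list of CPT20 replicate 2 had its best summit inside the persistent site, 3 bp past the PVT1 start, at −log10 q 17.2.

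Stretches covered by a same-strand peak in all 4 libraries gave a view that needs no pairing. The MYC window held 9 such stretches, 6 forward and 3 reverse, and 7 of them lay in the MYC body. The PVT1 window also held 9, of which 8 were reverse and 1 was forward. The only forward one was that of the persistent site, at 367 to 510 bp from the 5′ end, and 4 of the reverse ones began within the first 5 kb of PVT1, at 0.155, 1.02, 4.27 and 4.76 kb. The reverse stretch at 1.02 to 1.38 kb touched the second exon of PVT1, which carried a reverse peak in all 4 libraries (−log10 q of 16.4, 17.2, 20.0 and 12.1) and no forward peak in any. Per Mb, the windows had 189 (MYC) and 20.8 (PVT1) stretches, the flanks 21.4 and chromosomes 1 to 22 and X 4.45. The MYC window was thus well above the flanks, and the PVT1 window close to them. Broader peaks cover such stretches more readily, and the part of the peak widths in MYC, given above, was not tested.

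Along PVT1, the first 5 kb held 6, 5, 8 and 5 peaks, which was 2.40, 2.70, 3.72 and 4.94 times the genome density. The rest of its body held 309, 218, 310 and 119 peaks, at 1.60, 1.52, 1.86 and 1.52 times the genome density. In each library the first 5 kb was denser than the rest of the body, with no overlap between the 2 sets of 4 values. The 20 kb upstream reached 2.01 ± 0.34 (SD, n = 4) and the 20 kb past the 3′ end 1.55 ± 0.26. Of the peaks in the PVT1 body, 4.44% to 9.87% had their summit in an annotated exon, and 6.48% of the body is exonic.

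**Figure D3:**
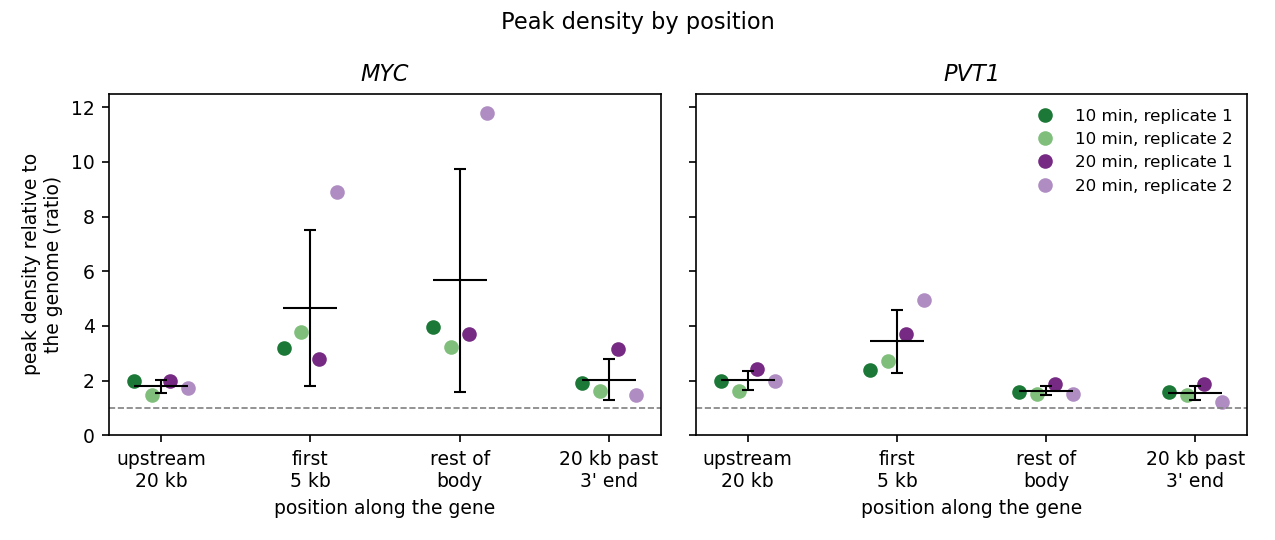
Peak density relative to the genome (linear ratio, dashed line at 1) in 4 positions along MYC (left) and PVT1 (right). Points are the 4 libraries and black bars the mean with its SD. The means of both parts of the MYC body lie above those of the 20 kb on either side, although in CPT20 replicate 1 the first 5 kb, at 2.79, lie below the 20 kb past the 3′ end, at 3.14, and the first 5 kb of PVT1, at 2.40 to 4.94, lie above the rest of its body, at 1.52 to 1.86.

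Forward and reverse peaks were not balanced, and the balance changed along the locus. In the MYC window 51.9%, 57.6%, 64.8% and 67.9% of peaks were forward, with 95% Wilson intervals of 38.7% to 64.9%, 40.8% to 72.8%, 51.5% to 76.2% and 49.3% to 82.1%. The whole lists held 41.7%, 50.2%, 50.1% and 50.2% forward peaks, so MYC was above its list in each library, although 3 of the 4 intervals include the share of the list. In the PVT1 window the shares were 41.3%, 46.3%, 46.2% and 38.7%. The intervals cover counting error only, since adjacent peaks can share breaks and duplicate reads stayed in the lists.

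In 50 kb bins, forward over reverse density (log2, each relative to its own list) switched sign 3 times between 100 kb upstream of PVT1 and its 3′ end. The 50 to 100 kb upstream, which include MYC, favoured forward peaks by 0.85 ± 0.42 (SD, n = 4), with all 4 libraries above 0. The bin next to the PVT1 5′ end was close to even at −0.07 ± 0.48. From 0 to 150 kb into PVT1 reverse peaks prevailed in all 4 libraries, at −1.17 ± 0.77, −1.63 ± 1.85 and −0.84 ± 0.62 in successive bins. The value of the second of these bins rested on CPT20 replicate 2, which had 0 forward and 10 reverse peaks there (−4.40), and the other 3 libraries averaged −0.70 ± 0.11. Summed over the libraries, the first bin held 56 forward and 122 reverse peaks. From 150 to 200 kb the balance was −0.51 ± 0.71, with CPT10 replicate 2 on the forward side at 0.33. From 200 to 350 kb the order was turned, with 0.28 ± 0.48, 0.47 ± 0.24 and 0.75 ± 0.30, CPT20 replicate 1 being on the reverse side in the first of these at −0.29, and the last bin, which runs past the gene's end, again favoured reverse peaks at −0.61 ± 0.58.

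The stretches were then joined, with limits chosen after their values were seen and hence with no test. Over the first 200 kb of PVT1 the log2 balance was −0.78, −0.98, −0.72 and −1.43, and from 200 to 350 kb it was 0.60, 0.83, 0.33 and 0.25. The sign was thus the same in the 4 libraries in each stretch, at both times. PVT1 is annotated on the plus strand over both stretches, and whether the balance is linked to transcription was not tested.

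**Figure D4:**
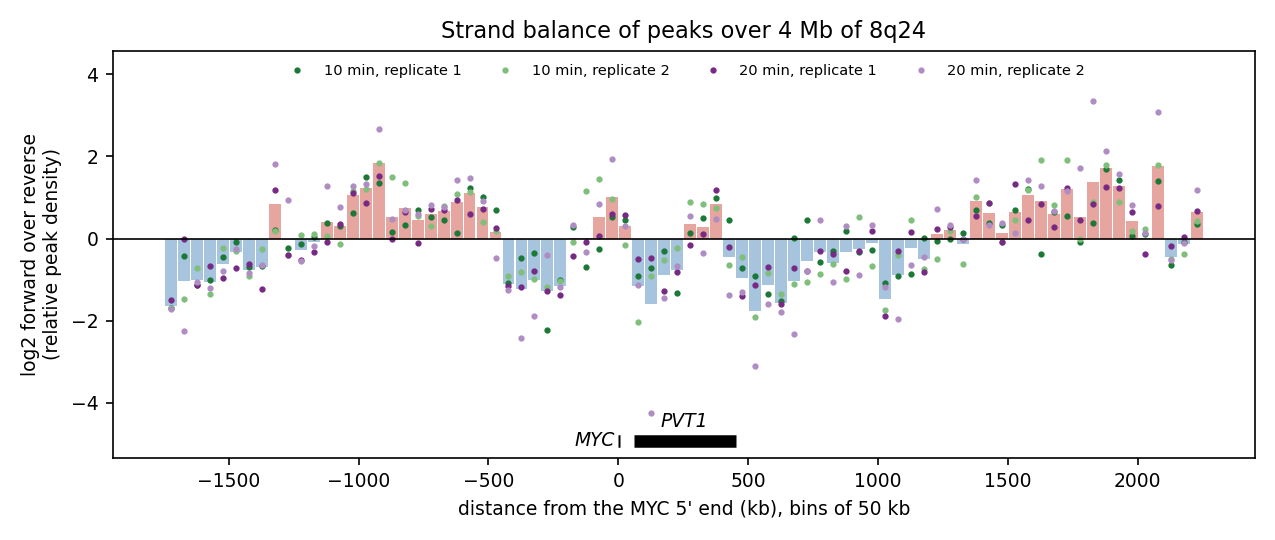
Log2 ratio of forward to reverse peak density in 50 kb bins over 4 Mb around MYC, with distance from the MYC 5′ end in kb on the linear x axis. Bars are the mean of the 4 libraries (red above 0, blue below) and points the libraries; black boxes mark MYC and PVT1. Long stretches of forward and reverse excess follow each other, and PVT1 contains a change from reverse (0 to 200 kb into the gene) to forward excess (200 to 350 kb).

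The same kind of alternation ran through the surrounding 8q24 sequence. Over the 80 bins of 50 kb in the 4 Mb around MYC, the balances of any 2 libraries correlated with Pearson's r of 0.68 to 0.77 and Spearman's rho of 0.69 to 0.80. The bins share the sequence and are not independent of their neighbours, so these values are a description only. The study called peaks by replicate with control samples as input, and it lists a single untreated library for each experiment. Libraries of different times may thus have shared an input, and the part of this in the correlations was not tested. Similar r were obtained for pairs of libraries from the same time (0.69 and 0.75) and from different times (0.68 to 0.77).

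At short range, adjacent peaks of opposite strand that did not overlap and lay less than 150 bp apart were in the break order (reverse, then forward) in 28 cases and in the opposite order in 44 cases, summed over the 4 libraries of the locus. In the flanks the counts were 125 and 108. By library the locus had 12 against 17, 5 against 4, 8 against 18 and 3 against 5.

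To compare the times, densities were set against the flanks. The MYC window held 52, 33, 54 and 28 peaks, which was 1.40, 1.05, 1.65 and 1.44 times the density of the flanks. On the log2 scale this gave 0.28 ± 0.30 (SD, n = 2) at 10 min and 0.62 ± 0.14 at 20 min, a difference of 0.35 (exact permutation test, two-sided, p = 0.33, the smallest p that 4 libraries allow). Each 20 min library was above both 10 min libraries at these settings. This order was lost with lists of equal length (difference 0.20) and at −log10 q of at least 3 (0.27), with exact permutation p = 0.67 for both. It was also lost in gene bodies alone (difference 0.54). The PVT1 window held 351, 246, 355 and 137 peaks, or 1.04, 0.856, 1.19 and 0.774 times the flanks. Its times differed by 0.02 (exact permutation p = 1), with the replicates of 20 min lying on either side of both 10 min libraries.

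In a fit over all gene windows, neither member passed the test of time. The log2 change from 10 to 20 min in peaks per gene window, relative to the genome, was 0.43 with a standard error of 0.25 for MYC and 0.13 with 0.26 for PVT1 (limma, adjusted p = 1.00 for both). MYC stood higher than 87.8% and PVT1 higher than 59.9% of the 60625 gene windows tested. The fit called no gene window in either direction after Benjamini-Hochberg adjustment (0% of those tested, higher or lower at 20 min), and 1835 had an unadjusted p under 0.05. With lists limited to equal length, the change was 0.15 for MYC, higher than 57.0% of the windows tested, and 0.03 for PVT1, higher than 45.5%. With CPT20 replicate 1 left out, 731 were called, 28 higher and 703 lower at 20 min. CPT20 replicate 2, the shortest list, then stood alone for 20 min and was assumed to vary as the 10 min libraries did, and neither member was among the windows called, with adjusted p of 0.579 for MYC and 0.995 for PVT1.

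Paired sites were denser than the flanks in MYC and on both sides of them in PVT1, and showed no steady difference between the times. The MYC window held 10, 5, 9 and 3 sites, at 2.71, 1.79, 2.54 and 2.59 times the density of sites in the flanks, so every library was above its flanks, and CPT10 replicate 1 was above both 20 min libraries. The PVT1 window held 34, 18, 40 and 3 sites, at 1.01, 0.709, 1.24 and 0.285 times the flanks. The times differed by 0.22 (log2) in MYC and by −0.51 in PVT1 (exact permutation p = 1 for both). The MYC difference was −0.0954 between the replicate 1 libraries, and turned to −0.23 at −log10 q of at least 3 and to −0.0595 with lists of equal length. The PVT1 value rested on CPT20 replicate 2, whose list of sites was the shortest of all, and without it the difference was 0.55.

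**Figure D5:**
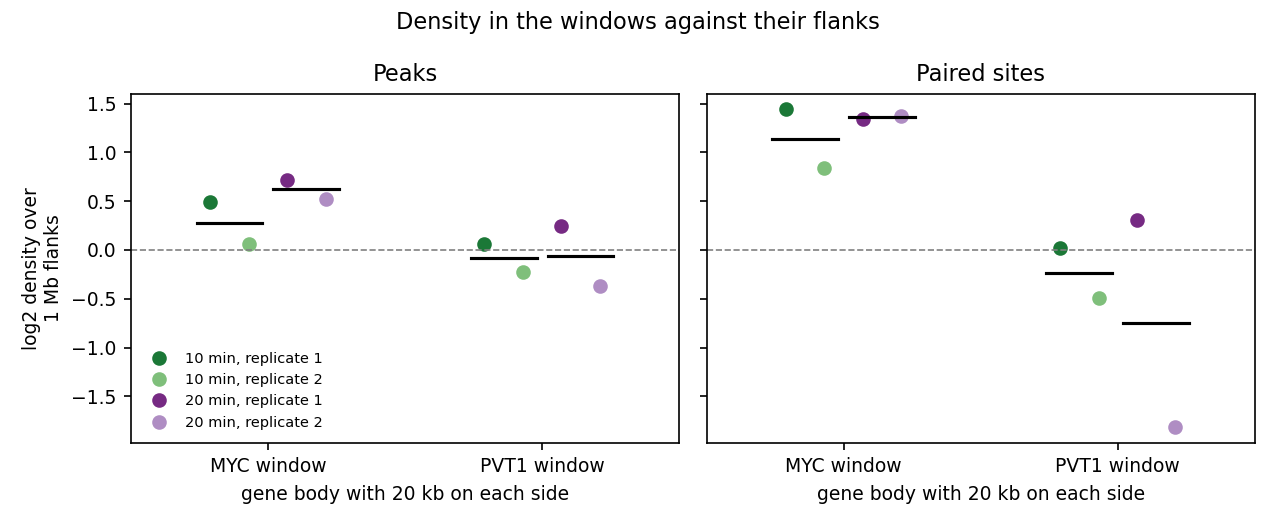
Log2 density in the MYC and PVT1 windows over that of the 1 Mb flanks, for peaks (left) and paired sites (right). Points are the 4 libraries, black bars the mean of each time, and the dashed line marks equal density. MYC lies above 0 in every library for both measures, whereas PVT1 lies on both sides of 0.

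Same-strand peaks recurred between replicates more in MYC than in PVT1. At 10 min, 44.4% of the forward peaks of replicate 1 and 63.2% of those of replicate 2 in the MYC window overlapped a forward peak of the other replicate, against 20.7% and 26.3% in the PVT1 window and 23.6% and 23.3% in the flanks. At 20 min the MYC shares were 31.4% and 68.4%, the PVT1 shares 9.76% and 28.3% and those of the flanks 15.8% and 27.1%. For reverse peaks the MYC shares ran from 21.1% to 50% and the PVT1 shares from 14.1% to 33.3%. Broader peaks overlap more readily, and the widths in MYC are given above, so their part in these shares was not tested.

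Among genes in general, the MYC window was dense in every library. Its density relative to the genome was 2.19, 1.88, 2.64 and 2.91, which exceeded 97.7%, 97.2%, 98.0% and 98.6% of protein-coding gene windows. The PVT1 window, at 1.63, 1.54, 1.91 and 1.57, exceeded 85.5% to 92.1% of all gene windows and 92.6% to 98.0% of the windows of the 5129 genes of at least 100 kb. The protein-coding genes most like MYC outside the locus, by Euclidean distance over the log2 densities of the 8 lists, were C11orf98, ENSG00000285932 and C11orf54, at distances of 0.42 to 0.48. For PVT1, compared with 5068 genes of at least 100 kb, they were TACC2, which encodes a centrosomal coiled-coil protein, CTDSPL2, a phosphatase gene, and SH3PXD2A, the gene of an invadopodia scaffold, at 0.45 to 0.49.

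The neighbours listed on 8q24 shared much of the density, but MIR1205, MIR1207 and MIR1208 lie inside PVT1 and CASC11 overlaps MYC. Others, such as PCAT1 and CASC8, overlap one another, so these windows count some of the same peaks. Of 25 genes and microRNAs of the region listed for comparison, 19 had a single entry by name in the annotation, and their median density relative to the genome was 1.86 (mean of 4 libraries per gene), against 1.01 over all genes. The highest was TRIB1, a pseudokinase gene upstream of MYC, at 2.81 ± 0.68 (SD, n = 4), and the lowest the microRNA gene MIR1205 inside PVT1, at 1.07 ± 0.38. A persistent site overlapped the first 5 kb of TRIB1 and of CASC11, the latter being the site on the second exon of MYC. SQLE, which encodes squalene epoxidase of sterol synthesis, had a site there that was replicated at one time only. Of all 63827 genes, 756 had a persistent site in the first 5 kb and 2500 a replicated site of any class.

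Within the MYC network of transcription factors, MYC had the densest window on the mean of the 4 libraries but in CPT10 replicate 1 alone by library. MXI1 was higher in both replicate 2 libraries (2.01 against 1.88 at 10 min, 3.06 against 2.91 at 20 min), and MLX, the gene of a MAX-like partner, was higher in CPT20 replicate 1 (2.82 against 2.64). The 13 genes of this list, which encode MYC, its relatives, their partner MAX and the factors that compete for MAX, had a median density of 1.26, against 1.11 over protein-coding genes. MYC was at 2.41 ± 0.46 (SD, n = 4), followed by MXI1, an antagonist of MYC, at 2.28 ± 0.54, so that these did not differ beyond their spread. The lowest was MLXIP, which encodes a glucose-responsive factor, at 0.760 ± 0.20. MYCN and MYCL, the closest relatives of MYC, were at 1.02 ± 0.27 and 0.945 ± 0.083. All these densities are relative to the genome, whereas against its own flanks the MYC window stood at 1.05 to 1.65. How far the position on the chromosomes enters this order was not tested. MYC was the only gene of this list with a persistent site in its body or window. Of all 20098 protein-coding genes, 577 had such a site in the body and 1058 in the window.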

How the data were processed

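According to the study's methods, reads of HCT116 END-seq libraries were trimmed with Trim Galore, aligned to hg19 with Bowtie2 and filtered with SAMtools, keeping duplicates. The authors called peaks with MACS2 for each library and strand against the control library, at a q-value threshold of 0.05, without pooling replicates. In the deposited lists the authors give a score (10 times the −log10 q-value, as a whole number), the summit's height over the expected height as a fold (a linear ratio), a −log10 p-value, a −log10 q-value, and the summit offset, another deposited value in bp. Summit heights were recovered as whole numbers (tolerance 0.02) from the fold. Replicate numbers of the labels were used, and the study's methods call them biological replicates.

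Peaks were placed by their summit on GRCh37 (the build of hg19) with GENCODE release 44 mapped to it. Sites followed the study's definition and were merged within a library with bedtools 2.31.1. Replicated sites overlapped by at least 1 bp. The study's blacklist and read-count filter were not repeated. Gene windows (body with 20 kb on each side, mean of at least 5 peaks) were tested with limma 3.58.1 (R 4.3.3, lmFit and eBayes with trend) on log2 of observed over expected peaks, with 0.5 added to both, and this was first tested on simulated data. Read totals are not used here, so depth is given as list lengths and expected heights. Named peaks are the best −log10 q of each list and window, named sites all replicated ones, and other genes the extremes of 2 lists, those of them with a replicated site at the 5′ end, and the 3 nearest by density. The members and lists were chosen with earlier results of these data known. Alternatives are given in the closing section.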

Additional observations from a re-analysis of the deposited data

How the results depend on the processing

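The densities over the flanks are the results most open to the choice of library. Leaving out each library in turn, the time difference (log2, 20 min minus 10 min) ranged from 0.13 to 0.56 for peaks of the MYC window, from −0.29 to 0.33 for those of the PVT1 window and from −0.21 to 0.35 for the locus. For paired sites it ranged from −0.0808 to 0.52 in MYC, from −1.57 to 0.55 in PVT1 and from −0.94 to 0.48 in the locus, and the limma change of PVT1 from −0.0151 to 0.27. With −log10 q of at least 3, the difference for peaks of PVT1 turned to −0.00374 and that for sites of MYC to −0.23, and with lists of equal length the latter turned to −0.0595. The count of windows called by limma ranged from 0 to 731 without 1 library. At −log10 q of at least 3, replicated sites fell from 6 to 3 (persistent in MYC, replicated at 10 min in MYC and at 20 min in PVT1), and relative densities rose to 2.198 upstream of MYC, 6.47 in its first 5 kb and 9.17 in the rest of it (the last 2 within 1 SD of the values given), 5.07 in the first 5 kb of PVT1 and 1.81 in the rest of PVT1. With pairing under 300 bp there were 7 replicated sites, the added one at 20 min only in PVT1. The strand change along PVT1 (log2, 1.48) was checked with alternatives chosen after seeing the data and was 1.82 with equal lists. The cause of these shifts was not tested. With the replicate block, the pairing of same-numbered libraries left the differences at 0.35 for peaks of MYC and 0.02 for those of PVT1 (exact p no lower than 0.5), and limma called 0 windows. The study lists its libraries under 2 experiments, each with an untreated, a 10 min and a 20 min library. The main tests of time did not use this grouping. The labels do not say that the replicate numbers follow these experiments. Deviations of same-numbered libraries correlated at r = 0.22 over gene windows, and 2 pairs do not settle whether they do. The other results kept their direction and their side of the threshold, moved by less than 1 SD or, for counts, stayed within 1.5 times, under every alternative run. With 2 libraries per time no exact test can pass 0.05, and the short lists of CPT20 replicate 2 limit what can be seen at 20 min.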
